A study of Rattus norvegicus with 34 samples.

Results

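Propiconazole at 2500 ppm in the diet was compared with propiconazole at 500 ppm in rat testis, over 9 arrays chosen by their labels: P2500 replicates 01 to 05 against P500 replicates 01 to 04. These are 9 of the 31 arrays of the series that held values, each from 1 male Wistar Han IGS rat. Both groups ate the fungicide from gestation day 6 to postnatal day 92, when the testis was taken. A Control group of 6 arrays at 0 ppm is given beside them, and the other 16 arrays were of myclobutanil (M500, M2000) and triadimefon (T500, T1800) under the same schedule. Litters are not in the labels used here, so p-values measure the spread between these animals only.

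Propiconazole is a triazole fungicide that blocks the fungal sterol demethylase Cyp51, an enzyme that mammals also carry in cholesterol synthesis. In liver, compounds of this class are known to activate the nuclear receptors CAR and PXR, which switch on Cyp2b, Cyp3a and conjugation genes. In the testis, Leydig cells turn cholesterol into testosterone through Star, Cyp11a1, Hsd3b1, Cyp17a1 and Hsd17b3, while Sertoli cells support the germ cells, whose spermatids supply much of the RNA. The liver makes plasma proteins such as albumin, which healthy testis cells make little of.

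Values are scores of a log-like scale whose base is not known, quantile normalized over the 31 arrays, and every difference is P2500 minus P500 in score units, not a fold. A score of 0 is near the middle of an array and not an absence of RNA. Testis markers were high on all 9 arrays: the protamine Prm1 tied at 4.66, the top of the scale, and the transition protein Tnp1 measured 4.49, 4.37, 4.49, 4.52 and 4.28 in P2500 01 to 05, against 4.46, 4.52, 4.49 and 3.87 in P500 01 to 04. The actin gap (3' minus 5' actin score, larger with less of the 5' end) was 1.02 ± 0.287 in P2500 (SD, n = 5) and 1.14 ± 0.213 in P500 (SD, n = 4), with the largest gap, 1.47, in P2500 05. The mean hybridisation control bioB stood at 0.937, and 4226 of 31042 probe sets had a mean at or above it.

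No probe set passed an adjusted p of 0.05 between the doses in either direction by limma with Benjamini-Hochberg adjustment over 31042 probe sets. The smallest adjusted p was 0.147. Taking p without adjustment, 591 probe sets were higher (1.9% of those tested) and 599 lower (1.93%) under 0.05; with the scores as deposited the counts were 530 higher and 214 lower. The median standard error of a difference was 0.0362. What set the high dose apart most was carried by 3 of its 5 arrays: P2500 02, 03 and 04 held genes of liver at scores that P2500 01 and 05 and all P500 arrays did not reach. Because P2500 was thus split within the group, the main genes below are given array by array, and many differences again with only P2500 01 and 05 against the 4 P500 arrays. In that reduced fit no probe set passed either, the smallest adjusted p being 0.81, and 542 were higher (1.75%) and 780 lower (2.51%) at p under 0.05 before adjustment.

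Albumin, Alb, the main protein of plasma, scored 0.0616, 4.15, 3.89, 3.91 and -0.124 in P2500 01 to 05, against 0.0382, 0.347, 0.0464 and 0.0157 in P500 01 to 04. The 3 arrays stood more than 3 units above every other propiconazole array, while P2500 01 and 05 lay among or below the P500 arrays. The difference of the means was 2.27 (SE 0.656, 95% interval 0.919 to 3.61, limma adjusted p = 0.247), and an exact permutation test over the 126 splits of the 9 arrays gave p = 0.143, two-sided. With P2500 01 and 05 alone it was -0.143 (interval -1.05 to 0.765). The second Alb probe set gave the same picture, at 3.68, 3.53 and 3.5 in P2500 02 to 04, against 0.0944 and -0.16 in P2500 01 and 05 and at most 0.152 in P500.

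Alb itself was not low in the rest of the series: Control arrays ran 0.132 to 1.65 with a median of 1.15, and the 22 arrays without propiconazole ran 0.00419 to 2.29. P500 and P2500 01 and 05 were thus near the low end of the series for this gene. Serpina1, the liver protease inhibitor alpha-1-antitrypsin, scored 0.086, 2, 1.96, 1.91 and -0.0567 in P2500 01 to 05, against -0.0101, 0.0582, 0.0269 and 0.0489 in P500 01 to 04. Its Control range of 0.0156 to 0.387, and its maximum of 0.387 over the 22 arrays without propiconazole, stayed far below P2500 02 to 04. Transthyretin, Ttr, which carries thyroid hormone and retinol-binding protein in blood, scored -0.103, 1.97, 2.16, 2.1 and -0.0571 in P2500 01 to 05, against -0.133, -0.0444, -0.104 and -0.0804 in P500 01 to 04, with a maximum of 0.5 in Control.

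The same 3 arrays were above the other 6 at 810 of the 31042 probe sets tested, by over 0.5 units at 94 and by over 1 unit at 49. They were below the other 6 at 545 of the 31042, by over 0.5 units at 2. Among 55 measured genes of the liver lists (plasma proteins and enzymes), 48 had P2500 02 to 04 above all other 6 arrays. The mean over the 27 measured plasma protein genes was 1.45, 1.43 and 1.41 in P2500 02, 03 and 04, against -0.00186 and -0.0663 in P2500 01 and 05 and -0.0106 to 0.00589 over the P500 arrays. Control arrays spanned -0.0575 to 0.252 on that mean.

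The 25 named genes with the largest such step, after Alb and the urinary protein gene Rup2, included Cyp3a2, the vitamin D carrier Gc, Ttr, the protease inhibitors Serpina3c and Serpina3l, the complement gene C3, the apolipoproteins Apoh and Apoc3, the fibrinogen chain Fga and the retinol carrier Rbp4. Some of their promoters are shown because HNF1, a factor of liver gene control, reads a site built from GTTAAT and its reverse complement. In RefSeq's table of the GRCr8 build, 21 of the 25 genes had a promoter entry. The 6 letters GTTAAT were searched on both strands (ATTAAC on the other) in the first 250 bases of each promoter entry. They stood there in 5 of those 21 genes (23.8%) and in 1775 of 27457 genes of the table (6.46%). Some entries run past the listed gene start. Bases past it were counted but are left out of the stretches below, as for Alb, shown at 186 bases. The 3 stretches below show matches in capitals, written 5′ to 3′ on the gene's strand: Alb at chr14:17907044-17907229 (minus strand), Gc at chr14:18916005-18916254 (plus strand) and Fga at chr2:170671919-170672168 (plus strand).
Alb: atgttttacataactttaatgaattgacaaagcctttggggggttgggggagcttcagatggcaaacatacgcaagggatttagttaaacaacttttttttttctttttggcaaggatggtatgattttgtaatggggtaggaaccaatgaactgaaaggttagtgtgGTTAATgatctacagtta
Gc: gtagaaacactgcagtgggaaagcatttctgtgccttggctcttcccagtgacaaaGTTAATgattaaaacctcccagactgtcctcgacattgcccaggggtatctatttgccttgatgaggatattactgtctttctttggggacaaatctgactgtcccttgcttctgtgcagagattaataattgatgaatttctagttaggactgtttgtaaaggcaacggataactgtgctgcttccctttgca
Fga: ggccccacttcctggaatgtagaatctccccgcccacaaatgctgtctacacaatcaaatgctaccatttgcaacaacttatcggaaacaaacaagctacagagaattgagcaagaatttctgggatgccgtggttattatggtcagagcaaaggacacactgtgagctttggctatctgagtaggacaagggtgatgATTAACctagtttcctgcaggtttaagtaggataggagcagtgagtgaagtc
A match is a string of letters in these windows and was not set against binding. The genes were picked by their scores on these same arrays, so the shares above test no cause.

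**Figure D1:**
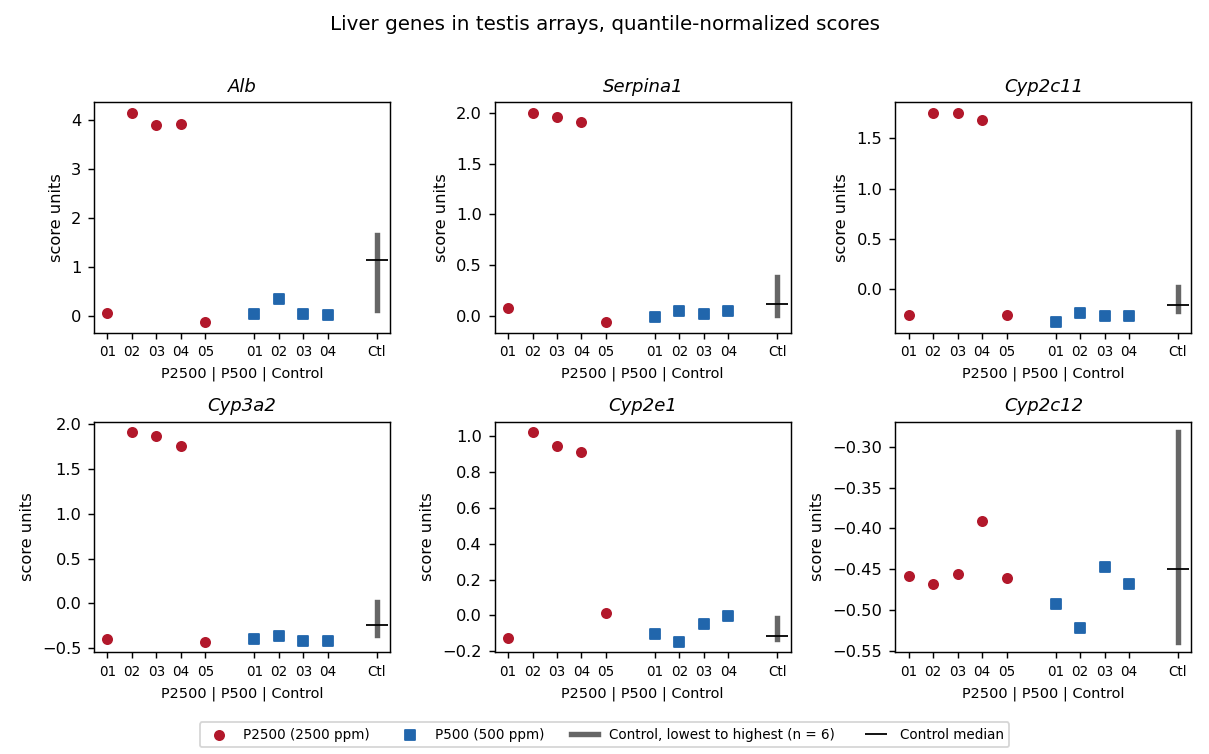
Quantile-normalized scores of 6 genes, 1 point per array, for P2500 01 to 05 (circles), P500 01 to 04 (squares) and the range of the 6 Control arrays (bar, with its median). In Alb, Serpina1, Cyp2c11, Cyp3a2 and Cyp2e1 the points of P2500 02 to 04 stand above all others, while Cyp2c12 stays between -0.521 and -0.391 on all 9 arrays; the vertical axes differ between panels.

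Other proteins that the liver secretes showed the step as well. Haptoglobin, Hp, which binds free haemoglobin, scored 1.24, 2.19, 2.12, 2.16 and 1.06 in P2500 01 to 05, against 1.2, 0.715, 1.31 and 0.987 in P500 01 to 04, and reached bioB on 25 of 31 arrays. Ambp, the precursor of alpha-1-microglobulin, scored 0.355, 1.4, 1.41, 1.39 and 0.14 in P2500 01 to 05, against 0.192, 0.151, 0.175 and 0.119 in P500 01 to 04. Antithrombin, Serpinc1, scored -0.256, 1.22, 1.14, 1.07 and -0.275 in P2500 01 to 05, against -0.295, -0.254, -0.291 and -0.239 in P500 01 to 04. Over all 27 measured plasma protein genes, 27 had a positive difference (range 0.146 to 2.27), with a median of 0.79 beside -0.00806 over the 14217 named genes, of which 41% were above 0. By limma before adjustment, 26 were higher and 0 lower at p under 0.05, beside 2.81% and 2.68% of all named genes. These p-values used a spread pooled over groups, although P2500 was split: Serpinc1 had an SD of 0.774 in P2500 and 0.0274 in P500. The exact permutation test used for Alb gave p = 0.0794 for Hp, 0.0794 for Ambp and 0.103 for Serpinc1. The list was chosen with earlier results known, so the count of 26 tests no dose effect. With P2500 01 and 05 alone the list median was -0.0349, with 6 genes above 0 and 21 below. None of the 27 passed the adjusted threshold in either fit.

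Cyp2c11 and Cyp2e1, P450 enzymes of liver, had the same step. Cyp2c11, the P450 that adult male rat liver makes most typically, scored -0.258, 1.75, 1.75, 1.68 and -0.253 in P2500 01 to 05, against -0.328, -0.235, -0.27 and -0.268 in P500 01 to 04, a difference of 1.21 (SE 0.29, adjusted p = 0.147) that was 0.0198 with P2500 01 and 05 alone. Cyp2c12, its counterpart of female rat liver, scored -0.458, -0.468, -0.455, -0.391 and -0.461 in P2500 01 to 05, against -0.492, -0.521, -0.448 and -0.468 in P500 01 to 04 and did not separate the arrays. Cyp2e1, which oxidises ethanol and small solvents, scored -0.124, 1.02, 0.942, 0.911 and 0.0161 in P2500 01 to 05, against -0.102, -0.147, -0.0492 and -0.00297 in P500 01 to 04. Among 28 measured liver enzyme genes 26 had a positive difference, the median was 0.294, and it was 0.00773 without P2500 02 to 04. Catalase, Cat, an antioxidant enzyme of peroxisomes, scored 0.345, 1.24, 1.2, 1.21 and 0.642 in P2500 01 to 05, against 0.378, 0.298, 0.452 and 0.367 in P500 01 to 04; here P2500 05 also lay above every P500 array.

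Genes that CAR and PXR are known to switch on are a usual readout of triazole exposure in liver. Cyp3a23-3a1, the inducible Cyp3a form of rat liver, scored -0.454, 1.39, 1.21, 1.17 and -0.427 in P2500 01 to 05, against -0.462, -0.392, -0.423 and -0.442 in P500 01 to 04. Cyp3a2, the male Cyp3a form, scored -0.403, 1.91, 1.87, 1.76 and -0.431 in P2500 01 to 05, against -0.406, -0.366, -0.425 and -0.421 in P500 01 to 04, and the glucuronosyltransferase Ugt2b1 scored -0.177, 0.661, 0.609, 0.561 and -0.253 in P2500 01 to 05, against -0.201, -0.21, -0.23 and -0.179 in P500 01 to 04. In all of these the 2 arrays without the liver step lay among the P500 arrays or within 0.05 units of them, and the differences without P2500 02 to 04 were -0.011, -0.0126 and -0.0101. Of 26 measured genes of the list 23 had a positive difference with a median of 0.0774, and 8 of 26 with a median of -0.0188 without those arrays. Abcc2, an export pump of conjugates, scored -0.354, -0.127, -0.194, -0.17 and -0.32 in P2500 01 to 05, against -0.414, -0.348, -0.341 and -0.357 in P500 01 to 04.

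Cyp2b3, a P450 of rat liver, scored -0.185, 0.547, 0.515, 0.475 and -0.22 in P2500 01 to 05, against -0.158, -0.186, -0.176 and -0.159 in P500 01 to 04. The receptor genes themselves had small differences: Nr1i3 (CAR) had a difference of 0.00351 (SE 0.0296) and Nr1i2 (PXR) of 0.00905 (SE 0.0257). Both lay below bioB on all arrays. Whether the liver genes of P2500 02 to 04 were transcribed in the testis or came from liver RNA was not tested. The labels' protocols cover RNA of both organs, and in bulk tissue fewer cells of a type and less RNA per cell cannot be told apart.

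**Figure D2:**
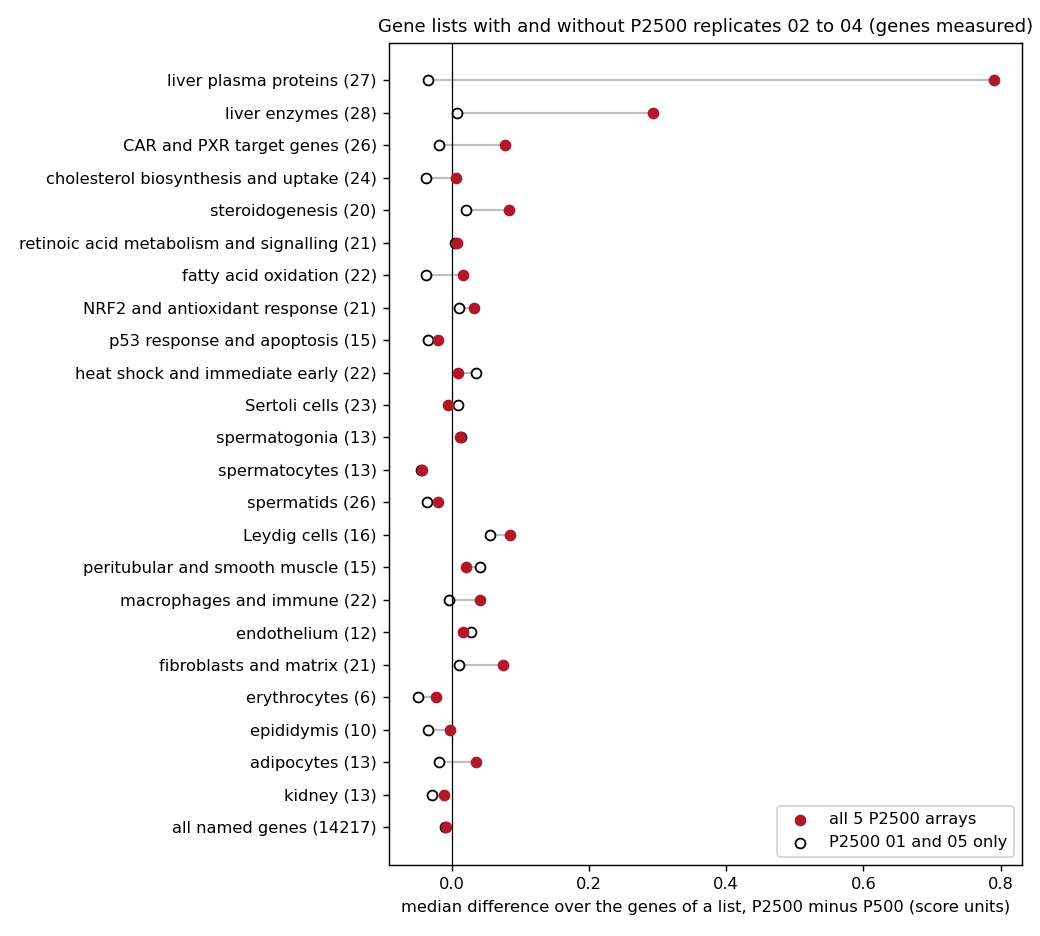
Median difference between P2500 and P500 (score units) over the measured genes of each of 23 lists and over all named genes; filled points use all 5 P2500 arrays and open points P2500 01 and 05 only. The plasma protein median stands at 0.79 with all arrays and at -0.0349 without P2500 02 to 04, while most other lists stay within 0.1 units of 0 either way.

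The 3 arrays were also lower than the rest at some genes, and among named genes the largest such gaps were in class I histocompatibility genes, which present peptides to T cells. RT1-CE10 scored 1.35, 0.433, 0.465, 0.448 and 1.01 in P2500 01 to 05, against 1.29, 1.28, 1.21 and 1.19 in P500 01 to 04. RT1-CE12 scored 1.92, 1.3, 1.36, 1.39 and 2 in P2500 01 to 05, against 1.86, 1.94, 1.88 and 1.84 in P500 01 to 04, and RT1-CE5 scored 0.425, 0.00265, -0.0627, -0.137 and 0.405 in P2500 01 to 05, against 0.548, 0.429, 0.414 and 0.294 in P500 01 to 04. P2500 02 to 04 lay under all P500 arrays in each of the 3 genes, and P2500 01 and 05 lay within or above the P500 range except for RT1-CE10 in P2500 05, which lay in between. Control arrays spanned 0.404 to 1.16 for RT1-CE10, 1.31 to 2.37 for RT1-CE12 and 0.00525 to 0.361 for RT1-CE5. P2500 02 to 04 were thus within the Control range for RT1-CE10, at its lower edge for RT1-CE12, and below it for RT1-CE5. RT1-A, another class I gene, did not show it, at 1.4, 0.915, 1.11, 1.09 and 0.62 in P2500 01 to 05, against 1.15, 0.758, 1.07 and 0.657 in P500 01 to 04. These genes belong to families of near-identical copies, so a probe set may read more than 1 of them.

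Wtap, a subunit of the RNA methyltransferase complex, scored 2, 0.771, 0.782, 0.759 and 1.3 in P2500 01 to 05, against 1.66, 1.73, 1.54 and 1.06 in P500 01 to 04, with Control at 0.892 to 1.83. Its second probe set, at 0.361, 0.471, 0.421, 0.421 and 0.528 in P2500 01 to 05, against 0.458, 0.512, 0.499 and 0.485 in P500 01 to 04, showed no such gap. RT1-Db1, a class II gene, was high on the 3 arrays on both of its probe sets. One scored 0.158, 0.74, 0.724, 0.715 and 0.183 in P2500 01 to 05, against 0.0591, -0.00246, 0.136 and 0.788 in P500 01 to 04. The other scored -0.0601, 0.395, 0.431, 0.396 and -0.139 in P2500 01 to 05, against -0.123, -0.0773, -0.0693 and 0.422 in P500 01 to 04. On both, P500 04 was about as high as P2500 02 to 04. Among the propiconazole arrays, fibroblast and matrix genes were in part higher on P2500 02 to 04. The proteoglycan decorin, Dcn, scored 0.474, 1.16, 1.24, 1.19 and 0.535 in P2500 01 to 05, against 0.688, 0.422, 0.636 and 0.454 in P500 01 to 04, and the collagen Col1a1 scored 0.488, 0.911, 1.04, 1.06 and 0.487 in P2500 01 to 05, against 0.502, 0.297, 0.732 and 0.367 in P500 01 to 04. The 22 arrays without propiconazole ran 0.386 to 1.53 for Dcn and 0.326 to 1.33 for Col1a1. P2500 02 to 04 lay within those ranges. Of 21 fibroblast and matrix genes 19 had a positive difference (median 0.0743), and 12 of 21 without P2500 02 to 04 (median 0.0104).

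Among 10 measured epididymis genes only Adam7, a sperm-maturation gene of the epididymis in mouse and rat, carried the step, at -0.0545, 0.639, 0.574, 0.555 and -0.122 in P2500 01 to 05, against -0.106, -0.174, -0.136 and -0.142 in P500 01 to 04. The median of that list was -0.00296, so the other defining genes did not follow. Of 13 kidney genes 2 had a positive difference (median -0.011). Of 6 erythrocyte genes 2 did (median -0.0232). Blood cell, kidney and epididymis lists thus did not show what the liver lists showed on the same arrays.

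Genes that separated all 5 high-dose arrays from all 4 mid-dose arrays, liver step or not, were counted next. Every P2500 array lay above every P500 array at 127 probe sets (0.409% of those tested) and below at 251 (0.809%). The second count was 105 with the scores as deposited. Their differences were small, with a median size of 0.0793 units above and 0.0696 below, and the mean of 9 and of 44 of them reached bioB. The Control mean lay nearer to P2500 than to P500 at 72 of the 127 and at 141 of the 251. The genes with the widest gaps are described by role below. They were chosen for their gap on these same arrays, so they carry no test of it.

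The widest gap was in Ciita, the transactivator that turns on class II histocompatibility genes in antigen-presenting cells. Its first probe set scored 0.401, 0.885, 0.754, 0.76 and 0.45 in P2500 01 to 05, against -0.235, -0.24, -0.252 and -0.329 in P500 01 to 04. All 5 high-dose arrays were above 0.4 and all 4 mid-dose arrays below -0.2, with P2500 02 to 04 the highest. The difference was 0.914 (SE 0.186, interval 0.532 to 1.3, limma adjusted p = 0.147), and 0.69 (SE 0.243) with P2500 01 and 05 alone. The second probe set scored 0.897, 1.22, 1.12, 1.14 and 0.628 in P2500 01 to 05, against 0.319, 0.337, 0.347 and 0.267 in P500 01 to 04, again with no overlap and a difference of 0.683 (SE 0.139).

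The other groups show how far Ciita ranges without a change of dose. In the 6 Control arrays the first probe set ran from -0.221 to 0.834, a wider span than the difference between the doses. T1800 held 3 arrays between 0.369 and 0.515 and 1 at -0.296, and M2000 ran from -0.228 to 0.663. All 4 P500 arrays lay below every Control array on this probe set, and 1 of 5 P2500 arrays lay above every Control array. T500 ran from -0.281 to 0.242, and the 3 arrays of M500 lay together between 0.587 and 0.701, within the P2500 range. The SD within a group was 0.212 in P2500, 0.0442 in P500, 0.377 in M2000, 0.0586 in M500, 0.364 in T1800, 0.255 in T500 and 0.37 in Control. That probe set reached bioB on 1 of 31 arrays and the second on 8.

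**Figure D3:**
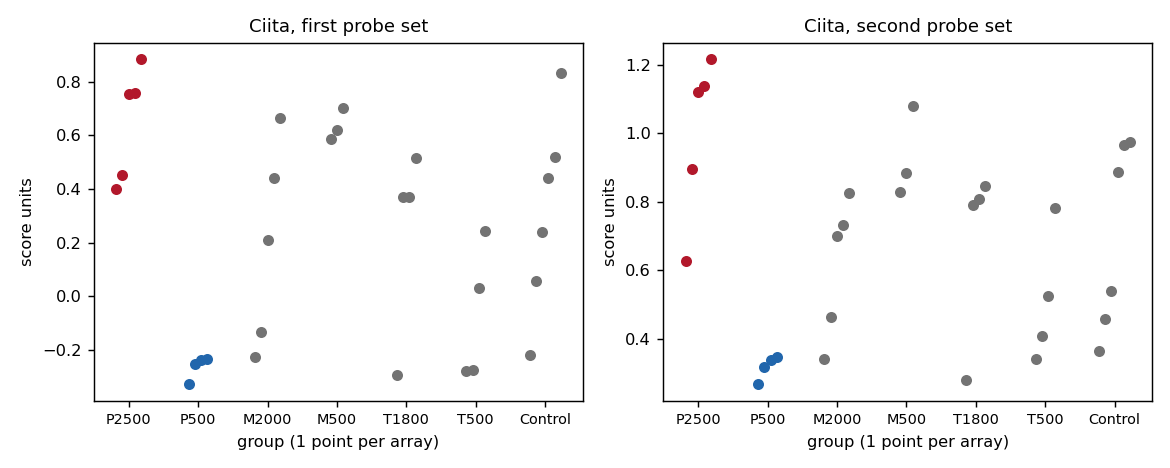
Scores of both Ciita probe sets on all 31 arrays by group, 1 point per array (P2500 in red, P500 in blue, the other groups in grey). The P2500 and P500 points do not overlap on either probe set, while M2000, T1800 and Control each hold arrays near both.

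Class II genes, which Ciita is known to turn on, were compared between the same arrays. Cd74, the invariant chain, scored 1.01, 0.857, 0.932, 0.954 and 0.574 in P2500 01 to 05, against 0.9, 0.685, 0.839 and 0.75 in P500 01 to 04, a difference of 0.0714 (interval -0.0842 to 0.227). RT1-Da scored 0.684, 0.598, 0.621, 0.598 and 0.378 in P2500 01 to 05, against 0.606, 0.394, 0.527 and 0.626 in P500 01 to 04, a difference of 0.0375 (interval -0.0928 to 0.168). RT1-Ba, RT1-DMa and RT1-DMb, further members of the class II pathway, had differences of 0.0397, -0.0236 and 0.0129. Of the 4 probe sets of RT1-Ba 3 had a positive difference. RT1-Bb split by array and by probe set. Its first probe set scored 1.15, 0.951, 1.04, 0.987 and 0.727 in P2500 01 to 05, against 0.806, -0.13, 0.995 and -0.163 in P500 01 to 04, and its second 0.903, 0.952, 1.06, 1.07 and 0.525 in P2500 01 to 05, against 1.08, 1.26, 0.769 and 1.19 in P500 01 to 04. The differences were 0.593 (interval -0.103 to 1.29) and -0.172 (interval -0.886 to 0.542), and those of the 2 RT1-Db1 probe sets were 0.259 and 0.166. P500 02 and 04 were the lowest of the 9 arrays on the first RT1-Bb probe set and the highest on the second.

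Ifgga2l1, an interferon-gamma induced GTPase, scored -0.214, -0.159, -0.222, -0.257 and -0.161 in P2500 01 to 05, against -0.341, -0.406, -0.399 and -0.364 in P500 01 to 04. RT1-T24-4, a class I gene, scored 0.588, 0.365, 0.216, 0.279 and 0.228 in P2500 01 to 05, against 0.0202, -0.264, 0.124 and 0.146 in P500 01 to 04; its gap was small and Control ran -0.0217 to 1.07. Ifi27l2b, of an interferon-inducible family, scored 0.388, 0.404, 0.528, 0.542 and 0.185 in P2500 01 to 05, against 0.0937, 0.0824, 0.131 and 0.0809 in P500 01 to 04, a difference of 0.313 (SE 0.0637, adjusted p = 0.147). Ifgga2l1, RT1-T24-4 and Ifi27l2b reached bioB on no array. Among 22 measured macrophage and immune genes 19 had a positive difference (median 0.0417), and 8 of 22 without P2500 02 to 04 (median -0.00355).

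Acsl1, which activates long-chain fatty acids, scored 1.39, 1.52, 1.3, 1.32 and 1.3 in P2500 01 to 05, against 0.98, 1.15, 0.963 and 1.22 in P500 01 to 04, with all 3 of its probe sets positive. Aspa, which splits N-acetylaspartate, scored 0.395, 0.338, 0.329, 0.331 and 0.282 in P2500 01 to 05, against 0.181, 0.153, 0.128 and 0.176 in P500 01 to 04. Sparcl1, a secreted matrix protein, scored 0.586, 0.577, 0.553, 0.562 and 0.578 in P2500 01 to 05, against 0.479, 0.453, 0.489 and 0.429 in P500 01 to 04, a gap of under 0.1 units. RGD1309362 scored -0.127, -0.305, -0.315, -0.318 and -0.173 in P2500 01 to 05, against -0.52, -0.486, -0.453 and -0.451 in P500 01 to 04 and was highest in P2500 01 and 05, so its difference was larger without P2500 02 to 04 (0.327) than with them (0.23).

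**Figure D4:**
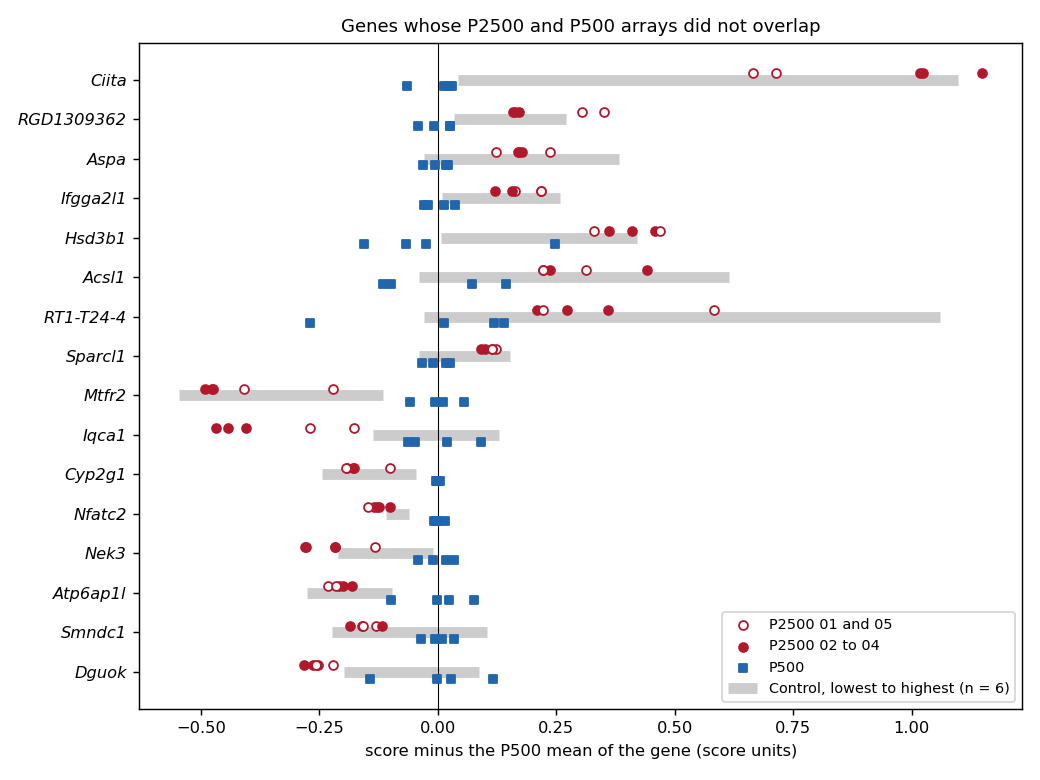
Scores minus the P500 mean of the same gene for the 8 genes with the widest gap in each direction: P2500 01 and 05 (open circles), P2500 02 to 04 (filled circles), P500 (squares) and the Control range (grey bar, n = 6). Control overlaps the P2500 points in most rows, as in Ciita, where it runs from just above the P500 points to beyond P2500 01 and 05.

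Genes lower in every P2500 array were led by Mtfr2, a regulator of mitochondrial fission. Its first probe set scored 0.708, 0.452, 0.438, 0.455 and 0.519 in P2500 01 to 05, against 0.923, 0.94, 0.869 and 0.984 in P500 01 to 04, a difference of -0.414 (SE 0.0978), and the second scored 1.2, 0.951, 0.836, 0.786 and 1.33 in P2500 01 to 05, against 1.41, 1.49, 1.39 and 1.74 in P500 01 to 04. Iqca1, an ATPase with an IQ motif, scored 0.824, 0.687, 0.624, 0.651 and 0.917 in P2500 01 to 05, against 1.05, 1.03, 1.18 and 1.11 in P500 01 to 04, lowest in P2500 02 to 04, a difference of -0.352 (adjusted p = 0.147). The Control ranges were 0.384 to 0.813 for the first Mtfr2 probe set, on the side of P2500, and 0.956 to 1.22 for Iqca1, on the side of P500. For the second Mtfr2 probe set Control ran 1.15 to 1.46, overlapping both dose groups and above P2500 02 to 04.

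Cyp2g1, a P450 of olfactory tissue, scored 0.283, 0.191, 0.203, 0.207 and 0.189 in P2500 01 to 05, against 0.382, 0.379, 0.386 and 0.387 in P500 01 to 04, and Nfatc2, a transcription factor switched by calcium, scored -0.154, -0.148, -0.142, -0.119 and -0.166 in P2500 01 to 05, against -0.0237, -0.0269, -0.00314 and -0.0217 in P500 01 to 04. Nek3, a kinase, scored 1.23, 1.23, 1.17, 1.17 and 1.32 in P2500 01 to 05, against 1.44, 1.41, 1.48 and 1.47 in P500 01 to 04. Atp6ap1l, named for its likeness to a proton pump accessory protein, scored 0.845, 0.876, 0.867, 0.895 and 0.863 in P2500 01 to 05, against 1.1, 1.15, 1.08 and 0.977 in P500 01 to 04. All 4 were lower with P2500 01 and 05 alone too, by differences of -0.147, -0.141, -0.174 and -0.223. Control ran 0.139 to 0.336 for Cyp2g1 and -0.127 to -0.0804 for Nfatc2, below every P500 array in each. For Nek3 it ran 1.24 to 1.44 and for Atp6ap1l 0.799 to 0.979, overlapping both dose groups. Smndc1, a splicing factor, differed by -0.15. Dguok, the mitochondrial deoxyguanosine kinase, differed by -0.256 on 1 probe set and by 0.00745 on the other.

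By smallest p, the genes higher in P2500 were Nxpe4, Ciita, Ifi27l2b, Akr1c14, Ang and Mup5, none of which passed (adjusted p = 0.147 for each). Nxpe4, of a neurexophilin-related family, scored -0.281, -0.052, -0.144, -0.0861 and -0.29 in P2500 01 to 05, against -0.377, -0.375, -0.342 and -0.351 in P500 01 to 04, a difference of 0.191 (SE 0.0353) that was 0.0757 without P2500 02 to 04. Akr1c14, a hydroxysteroid dehydrogenase that inactivates androgens in rat liver, scored -0.269, 0.0427, 0.00878, -0.0255 and -0.427 in P2500 01 to 05, against -0.388, -0.424, -0.457 and -0.428 in P500 01 to 04. Angiogenin, Ang, a secreted ribonuclease, scored -0.0624, 0.433, 0.486, 0.465 and -0.0627 in P2500 01 to 05, against -0.0903, -0.163, -0.151 and -0.0836 in P500 01 to 04, and Mup5, a urinary protein made in male liver, scored -0.474, -0.164, -0.204, -0.204 and -0.608 in P2500 01 to 05, against -0.61, -0.611, -0.633 and -0.605 in P500 01 to 04. In Nxpe4, Akr1c14, Ang and Mup5 the values of P2500 02 to 04 made up most of the difference. These genes and Ifi27l2b reached bioB on no array. The genes lower were Pask, Lmod2, Cyp2g1, Iqca1, Wdr38 and Nfatc2. Pask, a metabolic sensor kinase, scored 0.76, 0.841, 0.723, 0.792 and 0.699 in P2500 01 to 05, against 0.903, 0.891, 0.922 and 0.932 in P500 01 to 04, a difference of -0.149 (SE 0.0301, adjusted p = 0.147) that was -0.182 without P2500 02 to 04. Control arrays ran 0.779 to 0.88 for Pask, below every P500 array. Wdr38, of the WD repeat family, scored 2.56, 2.64, 2.54, 2.57 and 2.53 in P2500 01 to 05, against 2.71, 2.73, 2.64 and 2.72 in P500 01 to 04, and Lmod2, an actin-organising protein of muscle, scored 0.744, 0.661, 0.613, 0.659 and 0.534 in P2500 01 to 05, against 0.843, 0.842, 0.825 and 0.746 in P500 01 to 04.

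Steroid synthesis was the pathway of most interest for a P450-inhibiting fungicide. Hsd3b1, which makes progesterone from pregnenolone, scored 1.6, 1.73, 1.63, 1.68 and 1.74 in P2500 01 to 05, against 1.2, 1.11, 1.24 and 1.52 in P500 01 to 04. Every high-dose array was above every mid-dose array, with P500 04 the closest. The difference was 0.405 (SE 0.108, interval 0.183 to 0.627, adjusted p = 0.165), and it was 0.399 (SE 0.148) with P2500 01 and 05 alone, so it was about as large without the liver arrays. Control arrays ran 1.28 to 1.69. P500 01 to 03 lay below that range and P500 04 within it. P2500 01, 03 and 04 lay within it, and P2500 02 and 05 above it. The probe set reached bioB on all 31 arrays; transcripts of near-identical relatives may bind it too.

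Cyp17a1, which makes androgens from progestins, scored 1.49, 2.33, 2.21, 2.27 and 1.93 in P2500 01 to 05, against 1.79, 1.56, 1.9 and 1.34 in P500 01 to 04. P2500 02, 03, 04 and 05 were above all P500 arrays and P2500 01 was not. Its difference of 0.398 (SE 0.15, adjusted p = 0.862) was 0.063 without P2500 02 to 04. Cyp11a1, the side chain cleavage enzyme that starts steroid synthesis, scored 1.26, 1.43, 1.35, 1.35 and 1.21 in P2500 01 to 05, against 1.16, 0.876, 1.33 and 0.952 in P500 01 to 04, a difference of 0.242 (interval -0.00312 to 0.486).

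Star, which brings cholesterol into mitochondria, scored 0.941, 1.19, 1.03, 1.02 and 0.327 in P2500 01 to 05, against 0.789, 0.708, 0.896 and 0.437 in P500 01 to 04, where the lowest array was P2500 05. The groups overlapped, and the difference was 0.193 (interval -0.0779 to 0.465), or -0.0737 without P2500 02 to 04. Hsd17b3, the last step to testosterone, differed by 0.00444 (interval -0.049 to 0.0578). The Leydig hormone Insl3 differed by 0.151 (interval -0.236 to 0.538), the luteinising hormone receptor Lhcgr by 0.0958 (interval -0.0326 to 0.224) and the P450 reductase Por by 0.00224 (interval -0.0948 to 0.0993). Hsd17b3, Lhcgr and Por reached bioB on no array.

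**Figure D5:**
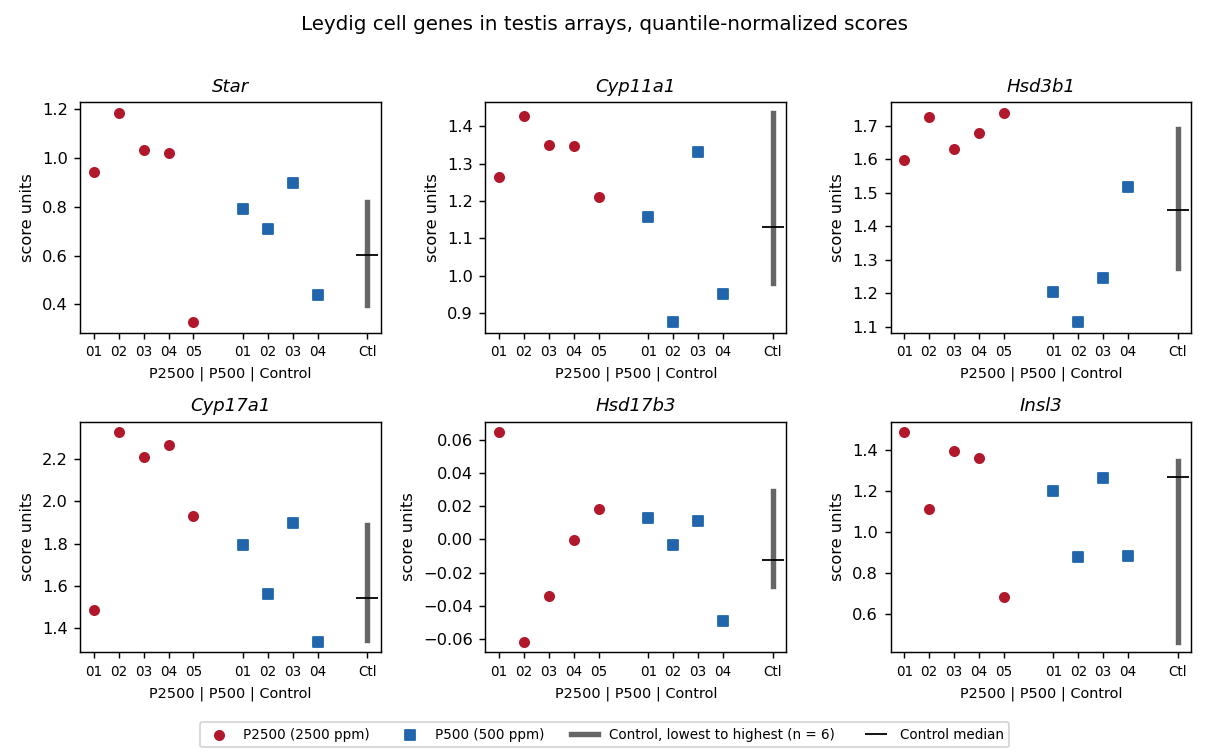
Quantile-normalized scores of 6 Leydig cell genes, 1 point per array, for P2500 01 to 05 (circles), P500 01 to 04 (squares) and the range of the 6 Control arrays (bar, with its median). Only in Hsd3b1 are all 5 P2500 points, between 1.6 and 1.74, above all 4 P500 points, between 1.11 and 1.52; the vertical axes differ between panels.

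Of 20 measured genes of steroidogenesis 15 had a positive difference with a median of 0.084, and at p under 0.05 before adjustment 5 were higher and 1 lower, beside 2.81% and 2.68% of all named genes. Without P2500 02 to 04 it was 11 of 20 with a median of 0.0206. Sult1e1, which sulphates oestrogen, and Cyb5a, the cytochrome b5 that aids Cyp17a1, scored 0.864, 0.838 and 0.766 and 1.09, 1.14 and 1.1 in P2500 02 to 04, against at most -0.262 and 0.534 in P500, and so moved with the liver step. Of 16 Leydig cell genes 14 had a positive difference (median 0.0846), and 12 of 16 without those arrays (median 0.0557). The Leydig list was the one whose median stayed highest without P2500 02 to 04, beside an all-gene median of -0.00932. Members such as Hsd3b1, Akr1c14, Cyp17a1 and Cyp11a1 are in both lists.

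Cholesterol genes, which hold the mammalian counterpart of the fungicide's target, were split evenly by sign. Cyp51 scored 0.908, 1.46, 1.14, 1.24 and 1.71 in P2500 01 to 05, against 1.18, 1.33, 1.28 and 1.54 in P500 01 to 04, with P2500 01 the lowest and P2500 05 the highest of the 9 arrays, and its difference was -0.0416 (interval -0.309 to 0.226). Its second probe set differed by 0.0213 (SE 0.0371). Squalene epoxidase, Sqle, scored 1.21, 1.42, 1.31, 1.31 and 1.39 in P2500 01 to 05, against 1.36, 1.44, 1.42 and 1.48 in P500 01 to 04, and the last-step reductase Dhcr7 scored 0.322, 0.426, 0.458, 0.44 and 0.335 in P2500 01 to 05, against 0.312, 0.239, 0.31 and 0.266 in P500 01 to 04. Of 24 measured genes 12 had a positive and 12 a negative difference (median 0.00644); without P2500 02 to 04 it was 6 and 18 (median -0.0373).

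Germ cell lists had medians near that of all genes. Of 13 spermatocyte genes 11 had a negative difference (median -0.0438), beside 58.9% of all named genes, and the median without P2500 02 to 04 was -0.0453. Msh5, which acts in meiotic recombination, scored 0.103, 0.122, 0.0858, 0.0931 and 0.0464 in P2500 01 to 05, against 0.142, 0.2, 0.183 and 0.103 in P500 01 to 04, a difference of -0.0671. Of 26 spermatid genes 17 had a negative difference (median -0.0197). Tekt2, a filament protein of the sperm tail, scored 2.67, 3.03, 2.94, 2.96 and 2.85 in P2500 01 to 05, against 3.02, 3.01, 2.97 and 3.06 in P500 01 to 04, where P2500 01 and 05 were the lowest, so the difference was -0.255 without P2500 02 to 04 and -0.126 with them. Akap4, a scaffold of the sperm tail, differed by -0.112 (SE 0.0578).

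Spermatogonia genes had a median of 0.0113 (8 of 13 positive) and Sertoli cell genes of -0.00483 (10 of 23). Of the Sertoli genes Krt18, a keratin also made by liver, scored 0.359, 0.327 and 0.299 in P2500 02 to 04, against 0.08 to 0.118 in P500. Peritubular and smooth muscle genes had a median of 0.0206 (9 of 15 positive), endothelial genes of 0.0162 (8 of 12) and adipocyte genes of 0.0352 (9 of 13). All of these lay within 0.05 units of the all-gene median.

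Stress and metabolic lists were near it too, apart from liver genes within them. Retinoic acid genes had a median of 0.00785 (11 of 21 positive), with Ttr, described above, the largest. Cyp26b1, which clears retinoic acid in the testis, scored 1.23, 1.45, 1.31, 1.3 and 1.83 in P2500 01 to 05, against 1.25, 1.4, 1.44 and 1.4 in P500 01 to 04 and overlapped. Its difference was 0.0504, and only 1 of its 2 probe sets had a positive one. Fatty acid oxidation genes had a median of 0.0162 (13 of 22), with the liver fatty acid carrier Fabp1 at 0.924, 1.14 and 1.09 in P2500 02 to 04, against at most -0.277 in P500. Antioxidant genes had a median of 0.0324 (16 of 21), led by Cat and by Gpx1, which scored 0.81, 1.14, 1.19, 1.17 and 0.525 in P2500 01 to 05, against 0.659, 0.521, 0.651 and 0.587 in P500 01 to 04. Genes of the p53 response had a median of -0.0207 (3 of 15), and heat shock and immediate early genes of 0.00923 (13 of 22).

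With P2500 02 to 04 set aside, other genes came first, none past the threshold. Higher by smallest p were Mrpl43, Aif1l, RGD1309362, Pdap1, LOC100912510 and Irx3. Of the 3 probe sets of Irx3 only 1 had a positive difference with all 5 P2500 arrays. Mrpl43, a protein of the mitochondrial ribosome, scored 1.28, 0.861, 1.02, 1.1 and 1.4 in P2500 01 to 05, against 1.01, 1.08, 1.05 and 0.936 in P500 01 to 04, with P2500 01 and 05 above the other 7 arrays. Its difference was 0.321 (SE 0.0686, adjusted p = 0.882) from those 2 arrays and 0.113 from all 5. Lower were Pask, Tekt2, Zswim3, Fto, Tmem209 and Ubac1. Fto, a demethylase of RNA, scored 0.652, 0.841, 0.805, 0.839 and 0.668 in P2500 01 to 05, against 0.767, 0.789, 0.852 and 0.836 in P500 01 to 04, a difference of -0.151 (adjusted p = 0.916) from P2500 01 and 05 and of -0.0503 from all 5. Pask was among the 6 genes of smallest p in both fits.

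Calls appeared in 4 other fits. With array weights, which gave P2500 05 a weight of 0.188 and P2500 03 and 04 weights of 2.51 and 2.75, 537 probe sets rose and 318 fell; 432 of the 537 had P2500 02 to 04 above all other 6 arrays. Without P2500 01, 218 rose and 13 fell, and without P2500 05, 232 rose and 10 fell, with 218 of the 218 and 223 of the 232 showing that order. Of the 55 liver list genes, 46, 41 and 42 were called in these 3 fits. Both Ciita probe sets were called in them too, with adjusted p = 0.000611 and 0.000287 under array weights, 0.00755 and 0.0115 without P2500 01, and 0.00795 and 0.00183 without P2500 05. With the actin gap as a covariate 15 probe sets rose and 7 fell, among them the first Ciita probe set (0.943, adjusted p = 0.0353), Hsd3b1 (0.449, 0.0285), Nxpe4, Ifi27l2b and Akr1c14 higher, and Mtfr2 (-0.447, 0.0285), Iqca1, Pask and Lmod2 lower. These calls are limma's, by Benjamini-Hochberg over 31042 probe sets, and hold in those fits only.

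Arrays were also compared in pairs. P2500 03 and 04 differed by an SD of 0.0439 over all probe sets, the closest of the 10 pairs in P2500, whose widest pair was at 0.21. P2500 02 stood at 0.0907 from 03 and 0.09 from 04. In P500 pairs ran 0.0712 to 0.129, and the closest pairs of Control and T1800, at 0.0404 and 0.0423, were closer than P2500 03 and 04. No array known to be a repeat of a sample was set beside them. Whether any arrays shared material was therefore not tested, and each was counted as 1 animal by its label.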

How the data were processed

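Testis RNA was measured on Affymetrix rat genome arrays, 1 animal each, as biotin-labelled cRNA made with oligo-dT priming, per the labels' protocols. The authors deposited 1 score for each probe set, log-like and with array medians near 0 (-0.00914 to 0.0558 over the 9 arrays here). Their probe summary and normalization are not given in the sources used. Columns of 3 further arrays are empty and were not used. Scores were quantile normalized over 31 arrays, and group means of 7 groups were fitted together (R 4.3.3, limma 3.58.1, lmFit and eBayes, equal weights). The contrast was P2500 minus P500, adjusted by Benjamini-Hochberg over 31042 probe sets (57 control probe sets left out), with a threshold of 0.05. For arrays, their number limits the precision. The fit was tested on simulated data.

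The platform annotation, which can be old, gave 1 symbol to 20826 probe sets, several to 436 and none to 9780. Probe sets with several symbols named no gene, which leaves out Cyp2b1 and Cyp2b2. For the 23 lists a gene was read through its probe set of highest mean. The arrays, the lists and the genes always taken were chosen with earlier results of these data known. Named were the 6 genes of smallest p in each direction, in both fits, the 8 with the widest gap between groups that did not overlap, up to 4 genes of smallest p per list, and genes always taken: Alb, Serpina1, Cyp2c11, Cyp2e1, Cyp3a23-3a1, Cyp3a2, Ugt2b1, Abcc2, Cyp51, Star, Cyp11a1, Hsd3b1, Cyp17a1, Hsd17b3, Insl3, Lhcgr, Por, Cyp26b1, Prm1, Tnp1, Acta2 and Dcn. Also named, after their values were seen, were second probe sets, the class I and II genes, Wtap, Cyp2c12, Cyp2b3, Rup2, Nr1i3 and Nr1i2.

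Alternatives were the scores as deposited, the 9 arrays alone, array weights, the actin gap as a covariate, a trended robust variance, dim probe sets left out, the replicate number as a block, P2500 02 to 04 left out, and each array left out.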

Additional observations from a re-analysis of the deposited data

Results flagged for a closer look

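In 140 groups of 4 or 5 values checked by Dixon's test at the 95% level, 11 had a highest or lowest array set apart from its group, where chance gives about 1 in 20 groups. Among single genes, Alb scored 0.347 in P500 02, against at most 0.0464 in the other P500 arrays, while the highest P2500 arrays stood near 4. Star scored 0.327 in P2500 05, against 0.941 or more in the other P2500 arrays. The transition protein gene Tnp1 scored 3.87 in P500 04, against 4.46 or more in the other P500 arrays. Cyp2g1 scored 0.283 in P2500 01, against at most 0.207 in its group.

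List means set apart an array in 6 cases. P2500 05 was lowest for spermatids (2.98, against 3.05 or more), for macrophages and immune genes (0.245, against 0.356 or more) and for epididymis (0.936, against 1.07 or more), and it had the largest actin gap of the 9 arrays, 1.47. P2500 01 was highest for spermatogonia (0.22, against at most 0.191) and for peritubular and smooth muscle genes (0.507, against at most 0.414). P500 02 was lowest for heat shock and immediate early genes (0.681, against 0.709 or more). The SD of the deposited scores was 0.788 in P2500 01, against at most 0.678 in the other P2500 arrays. Their part in the results above was not tested beyond leaving out each array in turn.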

How the results depend on the processing

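No probe set was called, in either direction, in the fit as reported, with the scores as deposited, the 9 arrays alone, a trended robust variance, dim probe sets left out (4226 tested) or P2500 02 to 04 left out. Array weights gave 537 higher and 318 lower calls, and the actin gap as a covariate 15 and 7. Leaving out each array in turn gave 0 to 232 higher and 0 to 13 lower calls, all of them without P2500 01 (218 and 13) or P2500 05 (232 and 10). The replicate numbers were tried as a block, which called 0 probe sets higher and 0 lower (smallest adjusted p = 0.131; 693 higher and 832 lower at an unadjusted p under 0.05). Same-numbered arrays did not deviate together (correlations 0.557, 0.0189, 0.226 and -0.464, with 1 of 4 numbers matching best with its own), so the numbers were not taken as pairs.

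Probe sets with every P2500 array above every P500 array, 127 as reported, were 9 with dim probe sets left out, 1557 without P2500 02 to 04 and 171 to 447 with 1 array left out. Those below, 251 as reported, were 105 with the scores as deposited, whose cause was not tested, 44 with dim probe sets left out, where fewer are counted, 2365 without P2500 02 to 04 and 346 to 595 with 1 array left out. Groups of fewer arrays separate more easily, which applies to the settings that leave arrays out.

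Of the 162 named probe sets, list members and second probe sets included, 37 turned direction without P2500 02 to 04. Among the genes followed through all settings these were Alb (-0.143), Serpina1 (-0.0163), Cyp3a23-3a1 (-0.011), Cyp3a2 (-0.0126), Ugt2b1 (-0.0101), Star (-0.0737), Por (-0.0559) and Dcn (-0.0451). So did that of Acta2, smooth muscle actin (0.0402), which was -0.0136 as reported. Other turns were of differences near 0. Por was -0.00108 with the scores as deposited and -0.0195 with the actin gap, Cyp51 was 0.0301 with the actin gap, and Acta2 was 0.0177 under the block. With array weights Hsd17b3 was -0.0136, Cyp26b1 -0.0493 and Acta2 0.00649. With 1 array left out Por ran -0.0154 to 0.0345, Hsd17b3 -0.0123 to 0.0192, Cyp26b1 -0.0509 to 0.0986, Acta2 -0.104 to 0.0596, Cyp51 -0.145 to 0.0541 and Tnp1 -0.0601 to 0.155. The cause of these turns was not tested. Ciita and Hsd3b1 kept their direction under all settings that tested them.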
